A study of Mus musculus with 146 samples.

Results

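Paired subunits of the general transcription factor TFIID were followed as 6 genes through single germ cells of newborn mouse ovaries. They were *Taf7l*, *Taf4b*, *Tbpl1* and *Tbpl2*, whose known roles lie mainly in the gonads, and *Taf7* and *Tbp*, the general forms, and they were taken by name as 6 of the 52605 gene symbols quantified. *Taf4*, the general form of *Taf4b*, was added so that every gonadal gene had a partner. The cells were germ cells of C57/BL6J females, with no allele or treatment named, at age D0.5 (0.5 days after birth). They were picked by mouth pipette from trypsin-digested ovaries (n = 5) of pups from 1 litter. Single cells were made into Smart-seq2 libraries of polyadenylated RNA with ERCC spike-ins. Amplified cDNA that was positive for *Foxl2*, a pregranulosa gene, had been removed by the study before sequencing. No label ties a cell to an animal, so all cells count as 1 sample, the spread given is between cells of that litter, and no test or p-value is possible. The libraries were 146, and 1 of them, without *Ddx4* (below 1 TPM), was set aside. TPM corrects the reads of a gene for transcript length and library size. Levels of different genes can be set side by side only as far as the length used for each gene holds. For *Tbp* that length is uncertain, as given below.

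TFIID is the complex that recognises core promoters and nucleates the assembly of RNA polymerase II there. It holds the TATA-binding protein, encoded by *Tbp*, and a set of TBP-associated factors, the TAFs. *Taf7* encodes a TAF that interacts with the largest TAF and restrains its activity, and *Taf7l* is its X-linked relative known from male germ cells. TAF4B is a gonad-enriched relative of the scaffold subunit TAF4 and is needed for the ovarian reserve in mice. *Tbpl1* encodes a TBP-like factor that works with TFIIA and is needed for spermatid development, and *Tbpl2* encodes the oocyte TBP relative that oocyte growth requires.

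Promoter sequences were matched by symbol for 4 of the 6 genes (*Taf7l*, *Tbp*, *Tbpl1* and *Tbpl2*) and for *Taf4*, in RefSeq on GRCm38.p6, from 250 bases before to 50 bases after the annotated start. The 3 below are printed because they belong to the gene that was lower along the order of the cells, the gene that was higher, and the general member of the TBP family. Capitals mark TATAAA (the TATA box), CANNTG (the E-box bound by basic helix-loop-helix factors) and TAATTN (a homeodomain core), searched on both strands. Of 32851 promoters of the same length, 13.6% held TATAAA, 72.3% CANNTG and 26.97% TAATTN. The *Taf7l* promoter lies on the minus strand at chrX:134476441-134476740, the *Tbpl2* promoter on the minus strand at chr2:24096546-24096845, and the *Tbp* promoter on the plus strand at chr17:15499638-15499937.
Taf7l: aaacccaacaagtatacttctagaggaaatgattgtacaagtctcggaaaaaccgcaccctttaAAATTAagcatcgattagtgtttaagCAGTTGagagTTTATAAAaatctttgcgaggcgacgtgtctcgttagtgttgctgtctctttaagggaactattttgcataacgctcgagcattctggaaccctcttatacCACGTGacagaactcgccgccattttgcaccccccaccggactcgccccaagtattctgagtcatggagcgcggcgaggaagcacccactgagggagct
Tbpl2: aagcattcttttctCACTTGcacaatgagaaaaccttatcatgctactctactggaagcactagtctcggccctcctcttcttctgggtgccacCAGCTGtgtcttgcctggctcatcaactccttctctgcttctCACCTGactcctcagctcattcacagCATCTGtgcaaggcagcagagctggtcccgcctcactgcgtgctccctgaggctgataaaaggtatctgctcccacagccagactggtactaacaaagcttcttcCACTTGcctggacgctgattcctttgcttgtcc
Tbp: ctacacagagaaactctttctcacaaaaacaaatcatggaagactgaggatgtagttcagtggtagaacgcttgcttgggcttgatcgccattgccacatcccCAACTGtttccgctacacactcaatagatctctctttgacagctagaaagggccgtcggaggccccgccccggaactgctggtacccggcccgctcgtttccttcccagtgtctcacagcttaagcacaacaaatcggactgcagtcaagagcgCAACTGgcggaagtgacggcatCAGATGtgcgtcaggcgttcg

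In the *Taf7l* sequence, 2 overlapping TATAAA matches on opposite strands began 150 and 148 bases before the start, 2 CANNTG matches began 160 and 49 bases before it, and 1 TAATTN match began 186 bases before it. The *Tbpl2* window held 5 CANNTG matches and neither of the other motifs. The *Tbp* window held 3 CANNTG matches, the *Tbpl1* window (chr10:22731398-22731697, minus strand) held 1, and the *Taf4* window held none of the 3 motifs. These matches are letters in a window and no binding was measured. On GRCm38 (GENCODE M21), the genes themselves span chrX:134460118-134476490 for *Taf7l*, chr2:24071721-24096595 for *Tbpl2*, chr17:15499888-15528379 for *Tbp* and chr10:22703879-22731938 for *Tbpl1*. Exons of *Tbp* share 2582 bases with *Pdcd2* and exons of *Tbpl1* share 407 bases with *Slc2a12*, both on the opposite strand, and Smart-seq2 libraries do not mark strand, so reads there cannot be assigned to 1 gene with certainty.

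In all, 7 pairs of libraries carried different cell numbers but nearly the same profile. Their log2(TPM + 1) values over coding genes correlated at 0.991 to 0.997 (Pearson's r across genes), while no other pair passed 0.880 and the median over pairs was 0.706. The squared differences of their read numbers were 1.65 to 4.57 times those of pure counting, against at least 190.9 times in the 432 other pairs examined. Each pair was therefore averaged and counted as 1 cell, and results with every library counted separately are given in the closing section. Within the pairs, *Taf7l* differed by at most 0.065 on the log2 scale, *Taf7* by at most 0.12, *Taf4b* by at most 0.13, *Tbpl2* by 0.18 in the only pair that held it and *Tbpl1* by at most 0.24. *Tbp* differed by at most 0.69, in a cell where its 2 levels were 1.82 and 3.55 TPM. The spike-ins were not used here to estimate technical noise, and whether the pairs share cDNA or only a cell is not given in the sources used here. Between 4074810 and 26855273 reads per kept library were assigned to genes (median 9498860).

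The labelled germ cells carried germ cell markers. Over 7 of them (*Ddx4*, *Dazl*, *Mael*, *Tex101*, *Sycp3*, *Dnd1*, *Nanos3*) the summed level ran from 543 to 9023 TPM with a median of 4281. Since cells were kept by *Ddx4*, the 6 other genes are the check, and they summed to 525 to 8685 TPM with a median of 4029. Of these 6, 5 had a median of at least 1 TPM, so the sum does not stand for every marker. The median sum of 9 pregranulosa markers was 0.475 TPM and that of 7 stromal markers 0.748 TPM, but single cells reached 82.1 and 385 TPM. *Foxl2* reached 1 TPM in 4 cells, *Lum* in 1, and *Nr5a1* and *Tcf21* in 0.

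By mean TPM, *Taf7l* was the most abundant of the 6 paralogues and *Tbpl2* the rarest. The level of *Taf7l* was 851 ± 688 TPM (mean ± SD over all cells kept), with a lowest value of 0.418, a median of 773 and a highest of 2613. It was the highest of the 6 genes in 110 cells. *Taf7* had a mean of 111.6 ± 60.4 TPM, from 0 through a median of 107.5 to 368. *Tbp* had a mean of 99.4 ± 87.4 TPM, from 0 through 87.2 to 415. The means of *Taf7*, *Tbp* and *Tbpl1* lay within 1 SD of each other. That SD is the spread between cells and does not decide their order. The order of *Tbp* and *Tbpl1* depended on the transcript length used. *Tbpl1* had a mean of 85.4 ± 86.5 TPM, from 0 through 59.4 to 318. *Taf4b* had a mean of 26.7 ± 28.8 TPM, from 0 through 17.1 to 159. *Tbpl2* was listed at 0 in 93 cells and reached 146.04 TPM in the highest, with a mean of 12.4 ± 28.3 TPM. *Taf4*, by comparison, had a median of 0.414 TPM and a mean of 7.66 ± 17.4 TPM.

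At a limit of 1 TPM, the genes fell into those found in almost every cell and those found in some. *Taf7l* reached 1 TPM in all but 2 of the cells kept (98.6%, exact Clopper-Pearson 95% interval 94.9 to 99.8%), *Taf7* likewise in all but 2, and *Tbp* in all but 3 (97.8%, 93.8 to 99.5%). *Taf4b* was below 1 TPM in 20 cells (detected in 85.5%, 78.5 to 90.9%) and *Tbpl1* in 26 (detected in 81.2%, 73.6 to 87.3%). *Tbpl2* was detected in 37 cells (26.8%, 19.6 to 35.01%). These intervals cover counting error only. Relative to its mean, *Taf7* varied least between cells, with a coefficient of variation of 0.541, and *Tbpl2* most, at 2.29.

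To place the genes along oocyte differentiation, clusters were rebuilt from the genes on which the study names its clustering as based, without *Taf7l*, so that no member shaped them. The first component of these 18 genes held 36.6% of their variance and ran from *Sycp2* and *Stag3*, genes of the meiotic chromosome axis, to the zona genes *Zp3* and *Zp2*. Cluster 1 held 19 cells at the meiotic end, cluster 2 held 87 (94 with every library counted) and cluster 3 held 32 at the zona end. A ratio of mean TPM (with 1 TPM added to both means) was called at 1.5-fold, a limit of size and not a test. Among coding genes whose mean reached 1 TPM in 1 of the clusters compared, 24.5% were higher and 25.4% lower by that fold in cluster 2 than in cluster 1. Between cluster 3 and cluster 2, 18.2% were higher and 30.3% lower, and between cluster 3 and cluster 1, 27.5% were higher and 38.8% lower. Against these shares, 2 of the 6 paralogues were higher and 3 lower in cluster 3 than in cluster 1, with a median log2 ratio of -0.33 beside -0.24 for all 12619 genes compared. This count is in TPM. With TPM scaled to the spike-ins, *Taf7* was higher (0.81) and *Tbp* was not lower (0.25), beside a median of 0.43 over all genes. The *Tbp* and *Tbpl1* calls in the count also ended when single cells were left out.

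*Taf7l* was the member whose level was most reduced toward the zona end. In cluster 1 it ran from 417 through a median of 1283 to 2613 TPM, and in cluster 2 from 2.42 through 909 to 2534 TPM. In cluster 3 it ran from 0.418 through 107.2 to 524 TPM. The ranges of clusters 1 and 3 overlapped only at their ends, since the upper quartile of cluster 3, 279 TPM, lay below the lowest cell of cluster 1. The means were 1419.9 ± 725, 985 ± 604 and 150.1 ± 131.9 TPM. The log2 ratio was -0.53 from cluster 1 to cluster 2, within 1.5-fold in TPM but past it under 4 alternatives (-0.66 to -0.81), and -2.71 from cluster 2 to cluster 3, so that the level was 9.41-fold lower in cluster 3 than in cluster 1 (log2 ratio -3.23). With TPM scaled to the spike-ins the last 2 log2 ratios were smaller in size, -1.62 and -2.43, which are -2.27 and -2.85 relative to the median over all genes under that scaling. The gene was still detected in 30 of the 32 cells of cluster 3.

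*Taf4b* was lower at each step. In clusters 1 to 3 its means were 54.1 ± 42.97, 25.9 ± 24.8 and 12.8 ± 14.8 TPM, and the medians were 41.8, 19.2 and 8.79 TPM. Cells of cluster 1 spanned 0 to 159 TPM and those of cluster 3 spanned 0 to 64.1 TPM, so the groups overlapped over much of their range. The log2 ratios were -1.03 and -0.96 for the steps and -2.0 from end to end. In equal parts of the first component the second step fell under 1.5-fold, to -0.49. With TPM scaled to the spike-ins it was -0.17, which is -0.82 relative to the median over all genes under that scaling (0.65). The share of cells in which it was detected hardly differed, at 17 of 19, 74 of 87 and 27 of 32 cells.

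*Tbpl2* ran the other way. In cluster 1 no cell of 19 reached 1 TPM (exact interval up to 17.6%, and 15.8% as the share that 3 cells would give), and 1 read in 1 cell was the only trace of the gene. In cluster 2 it was detected in 12 of 87 cells (13.8%, 7.34 to 22.9%), with a median of 0 and a highest value of 146.04 TPM. In cluster 3 it was detected in 25 of 32 cells (78.1%, 60.03 to 90.7%), from 0 through a median of 26.2 to 133.2 TPM. The mean was 5.77 ± 20.999 TPM in cluster 2 and 37.7 ± 38.01 TPM in cluster 3, a log2 ratio of 2.51. That ratio was 3.46 with TPM scaled to the spike-ins, 3.32 from means of log2(TPM + 1), 1.73 with clusters on 2000 variable genes and 1.76 in equal parts of the first component. No fold against cluster 1 is given as a measurement, because the gene was at the limit of detection there. After 4000000 reads were drawn from each cell, a read was left in 1, 14 and 27 cells of the 3 clusters, so the same order was seen at an equal number of reads.

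In TPM, but not with TPM scaled to the spike-ins, *Taf7* differed least between the ends, while *Tbp* and *Tbpl1* had ratios that depended on the processing. *Taf7* had means of 107.6 ± 47.6, 110.4 ± 64.99 and 117.4 ± 55.3 TPM in clusters 1 to 3, with a log2 ratio of 0.12 between the ends, far inside the spread between cells, and 0.81 with TPM scaled to the spike-ins. *Tbp* had means of 119.02 ± 117.06, 106.5 ± 90.2 and 68.6 ± 43.5 TPM, with log2 ratios of -0.63 between clusters 3 and 2 and -0.79 between clusters 3 and 1. The former call ended from means of log2(TPM + 1), at -0.21, and when any 1 of 3 cells was left out. That ratio was 0.44 with TPM scaled to the spike-ins. The latter call ended, at -0.58, when 1 cell of cluster 1 was left out. Its ratio was 0.25 with TPM scaled to the spike-ins, under which the median over all genes was 0.43 in place of -0.24. *Tbpl1*, a gonadal form, had means of 80.9 ± 83.3, 72.5 ± 81.5 and 123.3 ± 92.7 TPM, and its log2 ratio of 0.60 between clusters 3 and 1 fell under 1.5-fold, to between 0.52 and 0.58, when cells were left out 1 at a time, for 19 of the cells. With TPM scaled to the spike-ins it was 1.51, which is 1.09 above the median over all genes. Its ratio between clusters 3 and 2 was 0.76, 1.82 with TPM scaled to the spike-ins, and 0.51, under 1.5-fold, between the last and the middle of 3 equal parts of the first component. In cluster 2 it was listed at 0 in 16 of 87 cells while its highest value was 318 TPM.

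**Figure D1:**
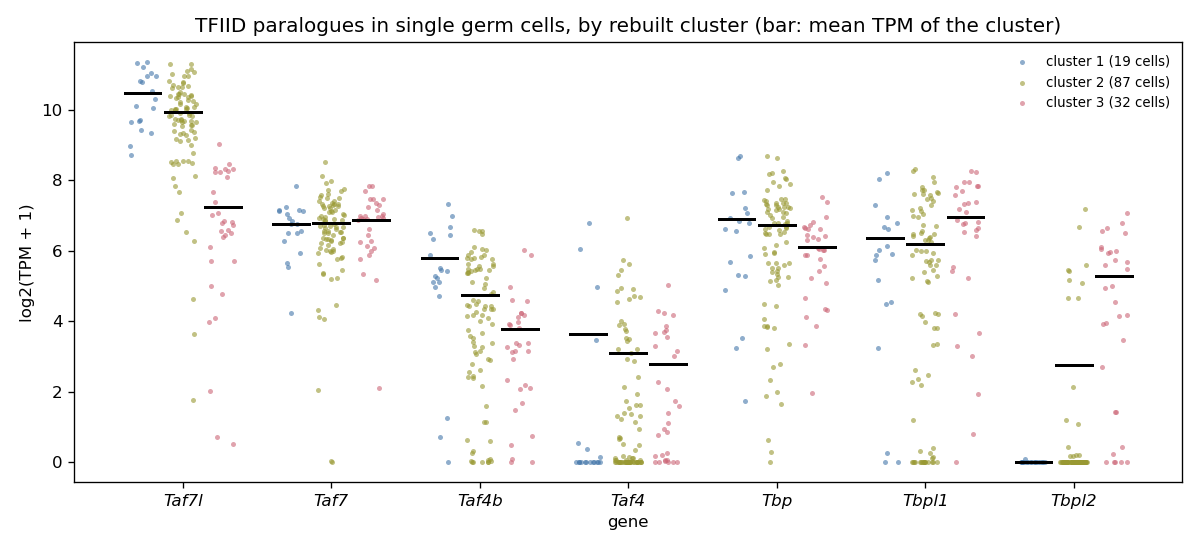
Level of each paralogue and of *Taf4* in the germ cells kept as log2(TPM + 1), with 1 point per cell, colours for the 3 clusters and a bar at the cluster's mean TPM. *Taf7l* steps down to 150.1 TPM in cluster 3 and *Tbpl2* leaves 0 mainly there, while the *Taf7* bars stay between 107.6 and 117.4 TPM.

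Other measures also differed between the clusters. Median reads per cell were 9615240, 9074740 and 10723600, the median number of genes with at least 1 read was 12424, 12077 and 14584, and spike-ins took a median of 0.345%, 0.443% and 0.265% of reads. Mitochondrial reads had medians of 5.20%, 6.19% and 7.46%, and the germ cell marker sum had medians of 4431, 4891 and 2386 TPM. Of the 7 germ cell markers, 6, 5 and 6 had a median of at least 1 TPM. The 9 blood and endothelial markers had median sums of 41.3, 77.2 and 30.6 TPM but reached 324531, 48544 and 43741 TPM in single cells. All 9 were present somewhere in each cluster. Pregranulosa and stromal sums had medians under 5 TPM in each cluster, with highest values of 59.1, 82.1 and 13.7 TPM and of 271, 385 and 33.05 TPM, and in cluster 3 *Foxl2* and *Nr5a1* were at 0 in every cell. The part of depth, mitochondrial share, RNA content and pregranulosa or stromal RNA in the ratios was not tested. Without the cells whose blood sum passed 1000 TPM, the *Taf7l*, *Taf4b* and *Tbpl2* ratios between clusters 3 and 1 kept their direction and their size past 1.5-fold.

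Without cluster borders, the cells were ordered on the first component and cut into 5 bins of 27 or 28 cells. *Taf7l* had bin means of 1506, 1181, 862, 519 and 152 TPM. *Tbpl2* had bin means of 0.00231, 0.0166, 9.34, 19.5 and 34.1 TPM, and was detected in 0, 0, 4, 12 and 21 cells. The *Tbpl2* cells nearest to the meiotic end thus lay in the middle bin, where *Taf7l* had a mean of 862 TPM. *Taf4b* had bin means of 47.6, 38.6, 18.6, 16.01 and 12.01 TPM, with its main step between the second and the middle bin. *Tbpl1* was lowest in the middle, at 54.3 TPM, and highest in the last bin, at 135.3 TPM. *Taf7* stayed between 92.99 and 122.1 TPM, and *Tbp* went from 113.2 to 72.5 TPM with its highest mean, 133.1, in the second bin. Across the cells kept, Spearman's rho with the first component was -0.73 for *Taf7l*, -0.43 for *Taf4b* and 0.64 for *Tbpl2*, and it was 0.03 for *Taf7*, -0.18 for *Tbp* and 0.09 for *Tbpl1*. Within cluster 2 it was -0.20 for *Tbpl1*, against the direction of its ratio between clusters 3 and 2. These are descriptions over cells of 1 sample that share library preparation, and rho with the mitochondrial share was -0.44 for *Taf7l*.

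**Figure D2:**
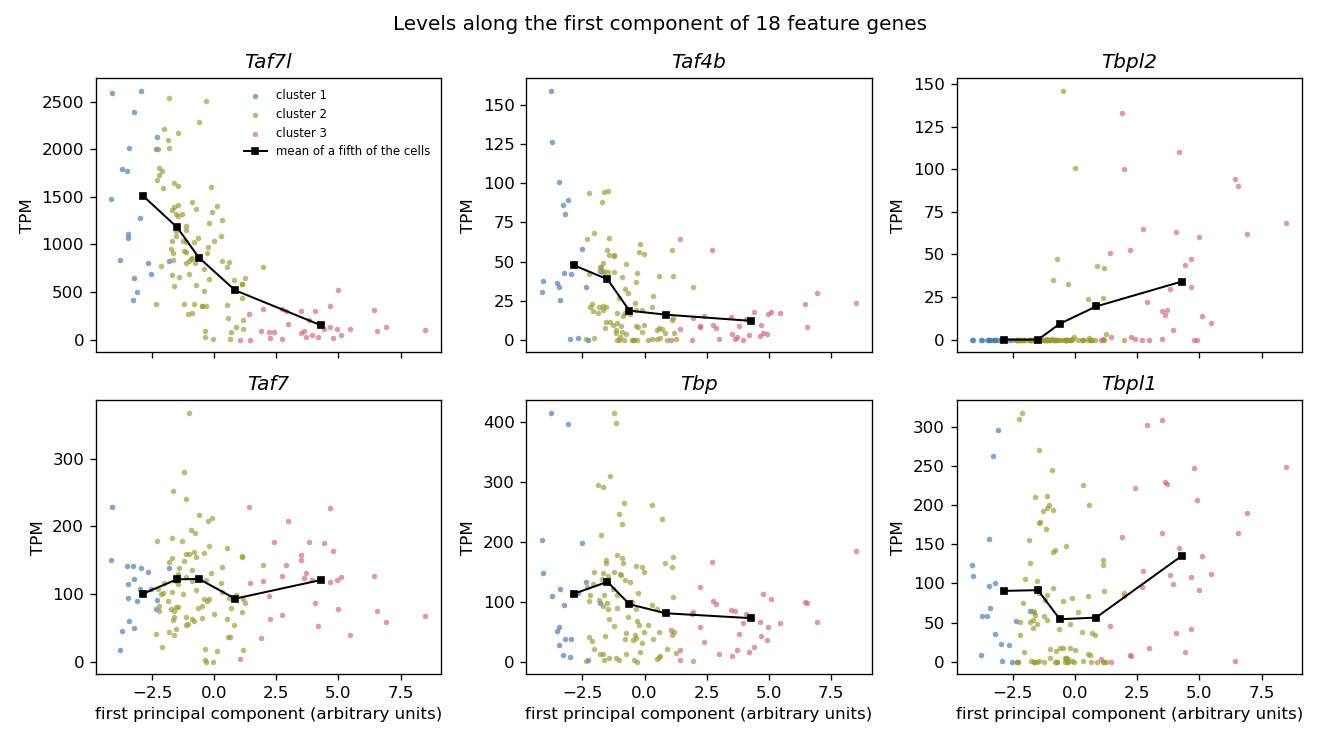
TPM of the 6 genes against the first principal component of 18 feature genes, with 1 point per cell coloured by cluster and black squares for the means of 5 bins at their mean component value. *Taf7l* runs from 1506 to 152 TPM over the bins, *Tbpl2* from 0.00231 to 34.1 TPM, and *Taf7* has no such trend.

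Compared within a cell, *Taf7l* exceeded *Taf7* in all but 19 of the cells kept (86.2%, 79.3 to 91.5%). The ratio of the means was 7.63, and the log2 ratio per cell ran from -6.16 through a median of 2.65 to 11.25. In cluster 1 all 19 cells had more *Taf7l*, with a median log2 ratio of 3.56 and a lowest of 1.55. In cluster 2 it was 85 of 87 cells, with a median of 2.90. In cluster 3 it was 15 of 32 cells (46.9%, 29.1 to 65.3%), with a median of -0.14. Single cells there ran from -6.16 to 2.75, so which form was higher differed from cell to cell. The *Taf7* mean was nearly the same in each cluster, and the *Taf7l* mean was not.

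*Taf4b* exceeded *Taf4* in 98 cells (71.01%, 62.7 to 78.4%), and the ratio of the means was 3.49. From cluster 1 to cluster 3 the median log2 ratio per cell was 5.23, 2.81 and 0.74, and the cells with more *Taf4b* numbered 16 of 19, 63 of 87 and 19 of 32. *Taf4* was detected in 4 of 19, 38 of 87 and 18 of 32 cells, although its mean was lower in cluster 3 (5.83 TPM) than in cluster 1 (11.3 TPM), where 12 of 19 cells were listed at 0 and 1 reached 108.9 TPM.

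Within the TBP family, *Tbpl1* exceeded *Tbp* in 53 cells (38.4%, 30.3 to 47.1%). It did so in 6 of 19 cells of cluster 1, 24 of 87 of cluster 2 and 23 of 32 of cluster 3, where the median log2 ratio per cell was 0.71 and the ratio of the means 1.799. Over all cells the log2 ratio of the means was -0.22, but it was 0.34 in CPM, which has no length correction, and reads per kilobase of the first annotated transcript gave 0.98. On that fixed length *Tbpl1* exceeded *Tbp* in 14 of 19, 51 of 87 and 26 of 32 cells, with median log2 ratios per cell of 1.07, 0.29 and 1.88, so in clusters 1 and 2 the direction turned and in cluster 3 it did not. The length of *Tbp* implied by its TPM and reads had a median of 635 bases, against 1891 for that transcript, so the order of *Tbp* and *Tbpl1* depends on how reads were divided among the 12 annotated *Tbp* transcripts. *Tbpl2* exceeded *Tbp* in 11 cells (7.97%, 4.05 to 13.8%), 4 of them in cluster 2 and 7 in cluster 3, where the ratio of the means was 0.55. In cluster 3 it was 14 of 32 cells in CPM and 16 of 32 on the fixed length, so the order of *Tbpl2* and *Tbp* there is not settled.

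**Figure D3:**
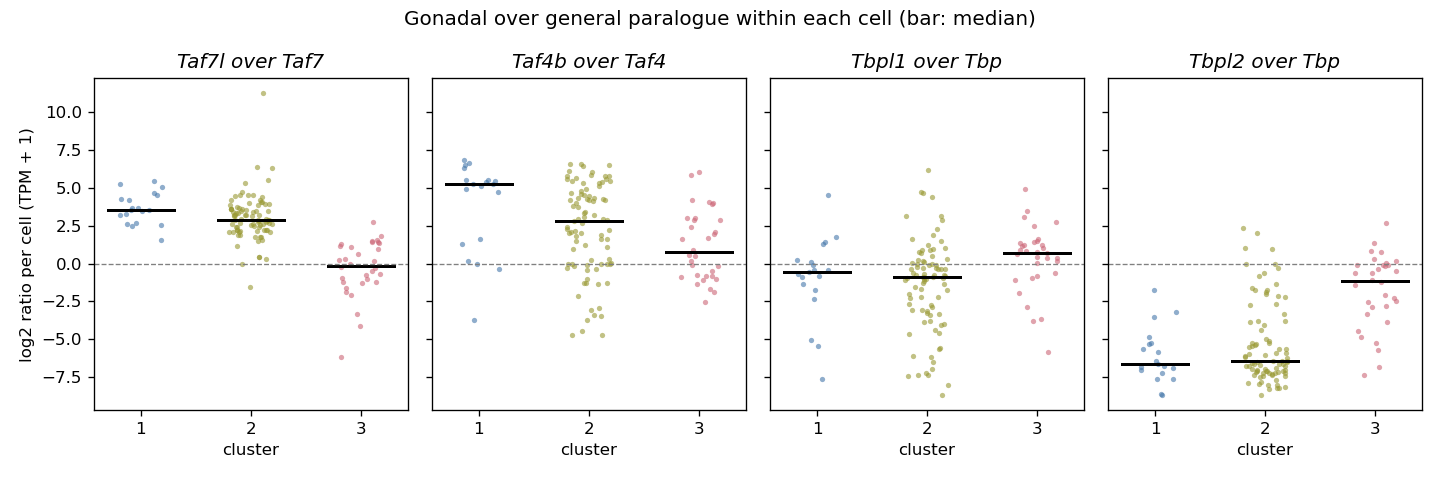
The log2 ratio of gonadal over general paralogue in each cell (1 TPM added to both), by cluster, with a bar at the median and a dashed line at equal levels. The *Taf7l* over *Taf7* median moves from 3.56 in cluster 1 to -0.14 in cluster 3, and the *Tbpl1* over *Tbp* median from -0.59 to 0.71. On reads per kilobase of the first annotated transcript, the *Tbpl1* over *Tbp* medians were 1.07 and 1.88. That change of sign thus depends on the length used.

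The combinations in single cells differed along the same order. *Tbp* and *Tbpl1* without *Tbpl2* were detected in 16 of 19 cells of cluster 1, 57 of 87 of cluster 2 and 7 of 32 of cluster 3. All 3 TBP family genes were detected together in 0, 8 and 23 cells. *Tbp* alone was detected in 3, 15 and 0 cells, and *Tbp* was below 1 TPM in 3 cells, all in cluster 2, of which 1 was listed at 0. The most abundant of the 3 was *Tbp* in 13 of 19 cells of cluster 1 and 60 of 87 of cluster 2, and *Tbpl1* in 21 of 32 cells of cluster 3. On the fixed transcript length the leader was *Tbpl1* in 14, 48 and 21 cells of the 3 clusters, so the *Tbp* lead in the first 2 depends on the length used. Among all 6 members, in TPM, *Taf7l* led in 19 of 19 and 82 of 87 cells of clusters 1 and 2 but in 9 of 32 cells of cluster 3, where *Tbpl1* led in 15, *Taf7* in 6 and *Tbp* in 2.

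Cells with *Tbpl2* and cells with little *Taf7l* overlapped in part. *Tbpl2* reached 1 TPM in 37 cells and *Taf7l* lay below *Taf7* in 19, and 11 cells met both conditions (29.7% of the first group and 57.9% of the second). All 11 belonged to cluster 3. There, *Taf7l* lay below *Taf7* in 11 of the 25 cells with *Tbpl2*, and in the cells without it 6 had *Taf7l* below *Taf7* and 1 did not, so within that cluster the conditions did not go together. In cluster 2, none of the 12 cells with *Tbpl2* had *Taf7l* below *Taf7*, but only 2 of all 87 cells there did. Across cells, rho between *Taf7l* and *Tbpl2* was -0.54, and within cluster 2 it was -0.28.

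The other subunit genes of TFIID and its partner genes are given as 2 lists beside the shares over all genes. Of 14 other subunit genes, 3 were higher and 7 lower by 1.5-fold in cluster 3 than in cluster 1, with a median log2 ratio of -0.44, beside 27.5% higher and 38.8% lower among all genes compared. Of 19 genes for initiation partners (TFIIA, TFIIB, TFIIE and TFIIF, their regulators, and factors of related complexes), 5 were higher and 6 lower, with a median of -0.08. Both lists lie near the shares over all genes, so neither count is a result about its list. All of these genes were included whatever their level. *Taf9b*, a relative of the histone-fold subunit gene *Taf9*, had the lowest ratio, with means of 419.9, 196 and 25.1 TPM in clusters 1 to 3 (log2 ratio -4.01), beyond that of *Taf7l*. *Taf6*, another histone-fold subunit, went from 172 to 40.7 TPM, *Gtf2e1*, for a TFIIE subunit, from 75.6 to 17.8 TPM, and *Taf1b*, of the RNA polymerase I selectivity factor, from 89.8 to 23.4 TPM. At the other end, *Drap1*, a subunit of the TBP-binding repressor NC2, went from 85.5 to 349 TPM (log2 ratio 2.02), and *Taf1a*, of the polymerase I factor, from 39.9 to 143.3 TPM. The ratios of *Taf10* and *Taf5*, other TFIID subunits, were 0.99 and 0.93.

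**Figure D4:**
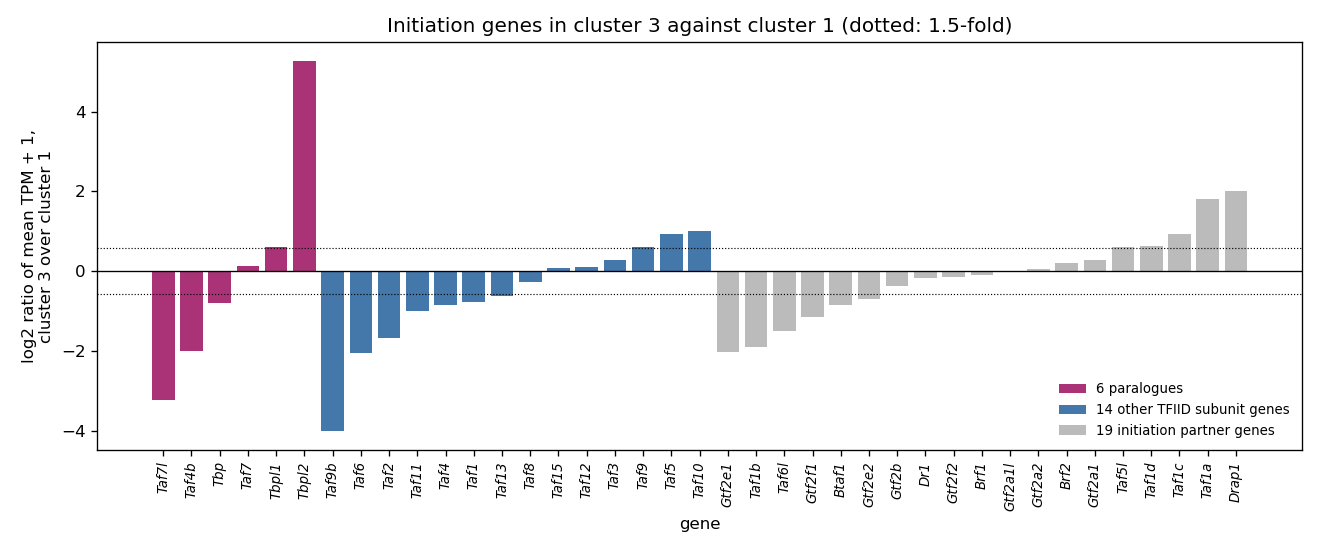
Log2 ratio of mean TPM (1 added) in cluster 3 over cluster 1 for the 6 paralogues, 14 other TFIID subunit genes and 19 initiation partner genes, with dotted lines at 1.5-fold. *Taf9b* and *Taf7l* are the lowest bars at -4.01 and -3.23, and the *Tbpl2* bar rests on the added 1 TPM because the gene was near 0 in cluster 1.

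Genes with a level most like each member were sought among 6685 coding genes by Spearman's rho over the cells kept. *Taf7l* was most like *Tex101* (0.80), a germ cell surface protein gene, *Hspa5* (0.77), a chaperone of the endoplasmic reticulum, and *Tktl1* (0.76), a transketolase relative, and least like *Tmsb10* (-0.73), for an actin-binding thymosin, and *mt-Nd2* (-0.73), for a subunit of respiratory complex I. Within cluster 2 the first 3 values were 0.57, 0.66 and 0.64. *Taf4b* was most like *Prps1* (0.61), *Dld* (0.58) and *Matr3* (0.56), genes for nucleotide precursor synthesis, mitochondrial dehydrogenase complexes and a nuclear matrix protein. It was least like *Tmsb10* (-0.58) and *Dppa3* (-0.56), a maternal factor gene. *Taf7*, *Tbp* and *Tbpl1* had no close match. Their highest values were 0.36 with *Cd320*, 0.40 with *Ppp6r3* and 0.41 with *Rpl21*. The 2 other genes nearest to *Taf7* were *Ppil1* (0.36) and *Nptn* (0.34), those nearest to *Tbp* were *Ptpn4* (0.36) and *Gpr89* (0.35), and those nearest to *Tbpl1* were *Fam174a* (0.40) and *Lyplal1* (0.38). Their lowest values were -0.31 for *Taf7* (*Ulk4* and *Appl1*), -0.25 for *Tbp* (*Kif9* and *Shcbp1l*), and -0.30 and -0.28 for *Tbpl1* (*Abcf3* and *Psmd1*). These weak matches changed with the measure. *Tbpl2* was in too few cells to be ranked. Between members, rho was 0.39 for *Taf7l* with *Taf4b*, 0.12 for *Taf7l* with *Taf7* and 0.14 for *Tbp* with *Tbpl1*.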

How the data were processed

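Single germ cells of newborn ovary were sequenced as 146 libraries. Per the study's methods and processing notes, reads were checked with FastQC and quantified with Salmon (sequence bias corrected) against mm10 with ERCC sequences added; the annotation release is not given in the sources used here. The authors deposited per gene TPM and estimated counts of reads (NumReads), with lengths. TPM was used as deposited. The members and lists were chosen with earlier results of these data known. Libraries correlating above 0.95 over coding genes were averaged (7 pairs, found after the data were examined). The cell with *Ddx4* below 1 TPM was left out, and 138 were kept. All remaining cells passed the study's limits read from estimated counts, and 134 of 139 cells passed them read from TPM. TPM were clustered with Seurat 5.3.0 (R 4.3.3): NormalizeData, ScaleData, 10 components, 20 neighbours, resolution 0.2 (the first tried with 3 clusters). Ratios carry a pseudocount of 1 TPM. Named genes were the members, *Taf4*, the 4 largest end-to-end ratios in each direction among other TFIID and partner genes, and for members at 1 TPM in at least 50% of the cells, the 3 highest and 2 lowest rho among coding genes with a mean of at least 10 TPM. The log2 ratio between clusters 3 and 1 was tried, in CPM, on simulated reads with known folds. Gene types came from GENCODE M21 and RefSeq, and 24289 symbols found no match.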

Additional observations from a re-analysis of the deposited data

Results flagged for a closer look

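The library set aside (cell 29) had 0 reads of *Ddx4* among 1408459 assigned reads, and it gave more than the 3 reads that a count of 0 allows for 4 members. It held *Taf7l* at 109.7 TPM, *Taf4b* at 6.672 TPM (51 estimated reads), *Tbp* at 0.2187 TPM (4.395 reads) and *Tbpl1* at 1.253 TPM (5.218 reads). *Taf7* had 1 read and *Tbpl2* had 0. Its 7 stromal markers summed to 249 TPM, its 9 pregranulosa markers to 86.99 TPM and its 7 germ cell markers to 330 TPM. The source of these reads was not tested.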

How the results depend on the processing

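All of this rests on cells of 1 litter and clusters rebuilt here, so no value speaks to differences between animals. *Taf7l* over *Taf7*, *Taf4b* over *Taf4*, *Tbpl2* over *Tbp*, and the ratios of *Taf7l*, *Taf4b* and *Tbpl2* between clusters 3 and 1 kept their direction and their side of 1.5-fold under every alternative run, with ranges of 1.99 to 2.97, 1.63 to 2.60, -4.60 to -1.68, -3.93 to -2.43, -2.18 to -1.34 and 3.95 to 8.51. The last is set by the pseudocount (5.27 at 1 TPM, 8.51 at 0.1 TPM), since *Tbpl2* was near 0 in cluster 1, and only its direction can be read. The clusters on 20 genes were built with *Taf7l* and *Taf4b*, so the ratios of those genes there (-3.27 and -2.04) are no support. Counting every kept library as a cell changed no call among the ratios (*Taf7l* over *Taf7* was 2.97). No paired analysis was possible because the cells form 1 group.

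*Tbpl1* over *Tbp* was -0.22 as reported, 0.34 in CPM, -0.99 from means of log2(TPM + 1) and 0.98 from reads per kilobase of the first annotated transcript, chosen after seeing the data, as were the alternatives on libraries, on blood-rich cells and on the TBP family within a cell. Between clusters 3 and 1, *Taf7* reached 0.81 per spike-in. *Tbp* there was -0.33 in CPM, -0.38 from means of log2(TPM + 1), 0.25 per spike-in, and -0.87 to -0.58 with each cell left out in turn. *Tbpl1* there was 0.50 in CPM, 0.45 in Ward clusters, 0.56 on 20 genes with *Taf7l* and *Taf4b* included, 0.42 on 2000 variable genes, 0.27 in equal parts of the first component, and 0.52 to 0.83 with each cell left out, but 0.91 from means of log2(TPM + 1) and 1.51 per spike-in. Between clusters 3 and 2, *Taf4b* was -0.49 in equal parts of the first component, and *Tbp* was -0.63 as reported and 0.44 per spike-in. The *Tbp* call also ended in CPM (-0.58), from means of log2(TPM + 1) (-0.21), without blood-rich cells (-0.51), and without cell 12 of cluster 3 or cell 41 or 61 of cluster 2 (down to -0.58). For that step the median over all genes was -0.20 in TPM and 0.65 per spike-in, and relative to the latter *Tbp* was at -0.21 there and at -0.18 between clusters 3 and 1. The cause was not tested. *Tbpl1* between clusters 3 and 2 was 0.51 in equal parts and 1.82 per spike-in. Between clusters 2 and 1, *Taf7l* passed 1.5-fold from means of log2(TPM + 1) (-0.80), per spike-in (-0.81), on 2000 variable genes (-0.80) and in equal parts (-0.66). Of the 3 genes most like each member, 0 stayed among the 3 in CPM for *Taf7* and *Tbp* and 1 for *Tbpl1*. Within cluster 2, 0 stayed for *Taf7* and 1 each for *Taf7l*, *Taf4b*, *Tbp* and *Tbpl1*.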
